A study of Mus musculus with 12 samples.

Results

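Pdx1, Hnf4a, Onecut1, Foxa1, Foxa2, Gata6, Sox9 and Klf5 are transcription factors of the foregut endoderm and of the pancreatic epithelium that arises from it. They were taken by name from expression tables of 22630 genes, and each of the 8 had 1 entry in every tumor. The tables come from 12 tumors grown under the skin of NSG mice (a strain without mature T, B or NK cells) from KCip53-1, a cell line of pancreatic ductal adenocarcinoma. All 3 groups came from this line, which carries Ptf1a-Cre, TREp53R270H and R26rtTa/rtTa on a mixed background, so that these alleles are present in every group. The mutant p53R270H, together with dsRed, is made when doxycycline (dox) is given. The no-dox mice got 0 days of dox, the plus-dox mice got 36 days at 0.2 g/l in 5% sucrose water, and the off-dox mice got 33 days followed by 3 days without, with 4 tumors per group. These days are those of the labels, whereas the study's text describes off-dox mice as taken off dox when tumors could be felt, so the length of withdrawal is uncertain. The design compares gene expression in tumors with, without and after withdrawal of the mutant protein.

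Several features limit these tumors as models of the lineage. KCip53-1 is 1 line from 1 primary tumor, sorted for dsRed and propagated in dox before injection, and Ptf1a-Cre had acted in its pancreatic progenitors. No tumor was sorted before RNA extraction, so cells of the host were sequenced with the tumor cells. Mice aged 8 to 10 weeks were injected with 500000 cells per site in Matrigel, 2 tumors per mouse. The labels do not say which tumors grew on the same mouse, and where 2 tumors of a group shared one, the p-values between groups are too small. Dox itself differs between the groups in the same way as the mutant protein, and the effects of dox and of p53R270H cannot be told apart.

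Transcription factors of this kind set the identity of the gut tube and its organs. Foxa and Gata proteins open chromatin in early endoderm, and Hnf4a, Onecut1 and Pdx1 then act on genes of the liver, pancreas, stomach and duodenum. In the adult pancreas Pdx1 is kept high in beta cells and Sox9, Hnf4a and Onecut1 in duct or acinar cells. In pancreatic cancer, the epithelial or classical subtype is known for Gata6, Hnf4a, Foxa2 and Pdx1, and the squamous or basal-like subtype for their loss.

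Promoters from RefSeq, in a table built on GRCm38.p6, were on hand for Pdx1, Hnf4a, Onecut1, Foxa1 and Foxa2. Each was located in mm9, the build of the deposited tables, by an exact match that occurred once. Binding motifs of these factors and of Hnf1 were searched on both strands in the 250 bases before each start, and capitals mark the matches to motifs other than CACCC. Of 8 promoters of these genes, 4 are printed, trimmed where they reached an annotated exon. All 4 held a match to a motif other than CACCC. Among those not printed, the promoters of Pdx1 and Onecut1 and a Foxa2 promoter inside the gene model held no match other than CACCC. The printed promoters show where letters recognised by these factors occur before their starts.
Hnf4a upstream promoter, chr2:163332343-163332543, plus strand: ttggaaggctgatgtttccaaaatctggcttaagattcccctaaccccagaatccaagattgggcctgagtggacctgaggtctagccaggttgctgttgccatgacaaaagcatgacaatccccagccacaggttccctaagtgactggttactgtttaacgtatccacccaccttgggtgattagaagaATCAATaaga
Hnf4a downstream promoter, chr2:163372679-163372890, plus strand: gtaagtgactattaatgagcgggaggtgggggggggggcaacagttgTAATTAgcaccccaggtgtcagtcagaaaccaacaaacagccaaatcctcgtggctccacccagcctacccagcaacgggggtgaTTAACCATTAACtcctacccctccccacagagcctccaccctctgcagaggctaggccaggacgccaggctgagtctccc
Foxa2 promoter, chr2:147872706-147872955, minus strand: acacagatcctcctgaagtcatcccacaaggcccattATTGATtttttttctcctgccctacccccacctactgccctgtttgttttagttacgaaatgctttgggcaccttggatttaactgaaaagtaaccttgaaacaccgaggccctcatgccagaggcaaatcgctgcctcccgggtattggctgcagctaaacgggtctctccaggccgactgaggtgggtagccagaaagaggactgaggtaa
Foxa1 promoter, chr12:58647109-58647348, minus strand: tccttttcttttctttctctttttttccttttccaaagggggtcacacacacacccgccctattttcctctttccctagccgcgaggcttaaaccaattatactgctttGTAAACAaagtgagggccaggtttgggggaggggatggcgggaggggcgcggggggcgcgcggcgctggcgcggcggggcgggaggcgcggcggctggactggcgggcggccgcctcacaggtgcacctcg

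The upstream Hnf4a promoter held the Onecut motif ATTGAT on the minus strand, 59 to 54 bases before the first transcribed base, and the Gata motif AGATAA at 52 to 47 bases, across the trimmed end. The downstream Hnf4a promoter held the homeodomain motif TAATTA, read by Pdx1 among others and identical on both strands, and a motif of Hnf1 on the minus strand, 80 to 69 bases before the start. A further Foxa2 promoter, inside the gene model, held AGATAA and is not shown. The printed Foxa2 promoter held ATTGAT, and the Foxa1 promoter held the Foxa motif TGTTTAC on the minus strand. Of 32841 promoters of this length, 6.72% held ATTGAT, 4.84% TAATTA, 3.17% TGTTTAC and 0.131% the Hnf1 motif, while CACCC, the core of the Klf motif, occurred in 52.0%. AGATAA was in 9.99% of promoters, AACAAT, a Sox motif, in 9.43% and CAAAGTCCA, an Hnf4 motif, in 0.384%. No 2 of the capitalised matches overlap, other than TAATTA with itself on the opposite strand. A match is a run of letters only, and binding was not measured. The 2 Hnf4a promoters bear on how the gene was counted. Its model in the tables begins at base 163372924 of chromosome 2, 33 bases after the downstream start, whereas the upstream start lies 40331 bases earlier. Of 7 annotated Hnf4a transcripts in mm9, 4 begin with a first exon before this model, and reads on those first exons were not counted to Hnf4a.

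Depth was 19845923 to 33137609 counted reads per tumor. Of the library size implied by the RPKM values, genes took 88.4% to 89.4% in the no-dox group, 82.2% to 87.1% in the plus-dox group and 81.1% to 85.8% in the off-dox group. No no-dox tumor fell in the range of the others, so that share and the treatment cannot be told apart. The row for Trp53 does not check the labels. Its mean RPKM, the read count scaled to exon length and library size, was 47.7 ± 7.27 (SD, n = 4) without dox, 48.5 ± 6.44 with dox and 44.0 ± 1.72 off dox, and the log2 fold change of plus-dox over no-dox tumors was 0.04 (SE 0.11). Epithelial markers of the labelled tissue were present, with the duct keratin Krt19 at a mean of 227 RPKM and 8 of 8 markers above 0 in every tumor. Ptf1a, the factor that drives the Cre and defines acinar cells, had no counts in any tumor, where a count of 0 allows up to 3 reads per tumor. On the mean log2 CPM (counts scaled to library size) of the 8 epithelial markers, no-dox tumors ran from 7.33 to 8.24, plus-dox tumors from 5.05 to 7.79 and off-dox tumors from 6.26 to 7.96. Plus-dox tumor 2, at 5.05, and off-dox tumor 4, at 6.26, were lowest of the 12, and results are given below with and without them.

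Of the 8 factors, 6 were abundant and 2 scarce in these tumors. Klf5 was highest, with a mean of 29.6 RPKM over the 12 tumors, followed by Sox9 at 20.2, Hnf4a at 19.0, Foxa2 at 17.3, Pdx1 at 13.2 and Gata6 at 10.0. Foxa1, at 1.15, and Onecut1, at 0.695, lay far below. Neighbours in this order were compared within each tumor as a log2 ratio of RPKM. The test was an exact sign-flip permutation test, two-sided and adjusted over the 7 neighbour pairs. Because the order was set on these same tumors, the sign of each mean ratio was fixed beforehand. Klf5 exceeded Sox9 by 0.47 and did so in 9 of 12 tumors (exact test, adjusted p = 0.0154). Foxa2 exceeded Pdx1 by 0.45 in 11 of 12 tumors (exact test, adjusted p = 0.00342). Pdx1 exceeded Gata6 by 0.38 in 10 of 12 tumors (exact test, adjusted p = 0.00456), and Gata6 exceeded Foxa1 by 3.22 in all 12. Sox9 and Hnf4a (log2 ratio 0.12, exact test, adjusted p = 0.289), Hnf4a and Foxa2 (0.12, adjusted p = 0.0520) and Foxa1 and Onecut1 (1.01, adjusted p = 0.0780) did not differ beyond their spread. The leads differed between the groups. That of Klf5 over Sox9 was 0.90 in the no-dox tumors, where it held in 4 of 4. It was 0.32 and 0.20 in plus-dox and off-dox tumors, where it held in 3 and 2 of 4. In no-dox, plus-dox and off-dox tumors, Foxa2 exceeded Pdx1 by 0.17, 0.50 and 0.67. Pdx1 exceeded Gata6 by 0.60, 0.35 and 0.19 in the same order.

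**Figure D1:**
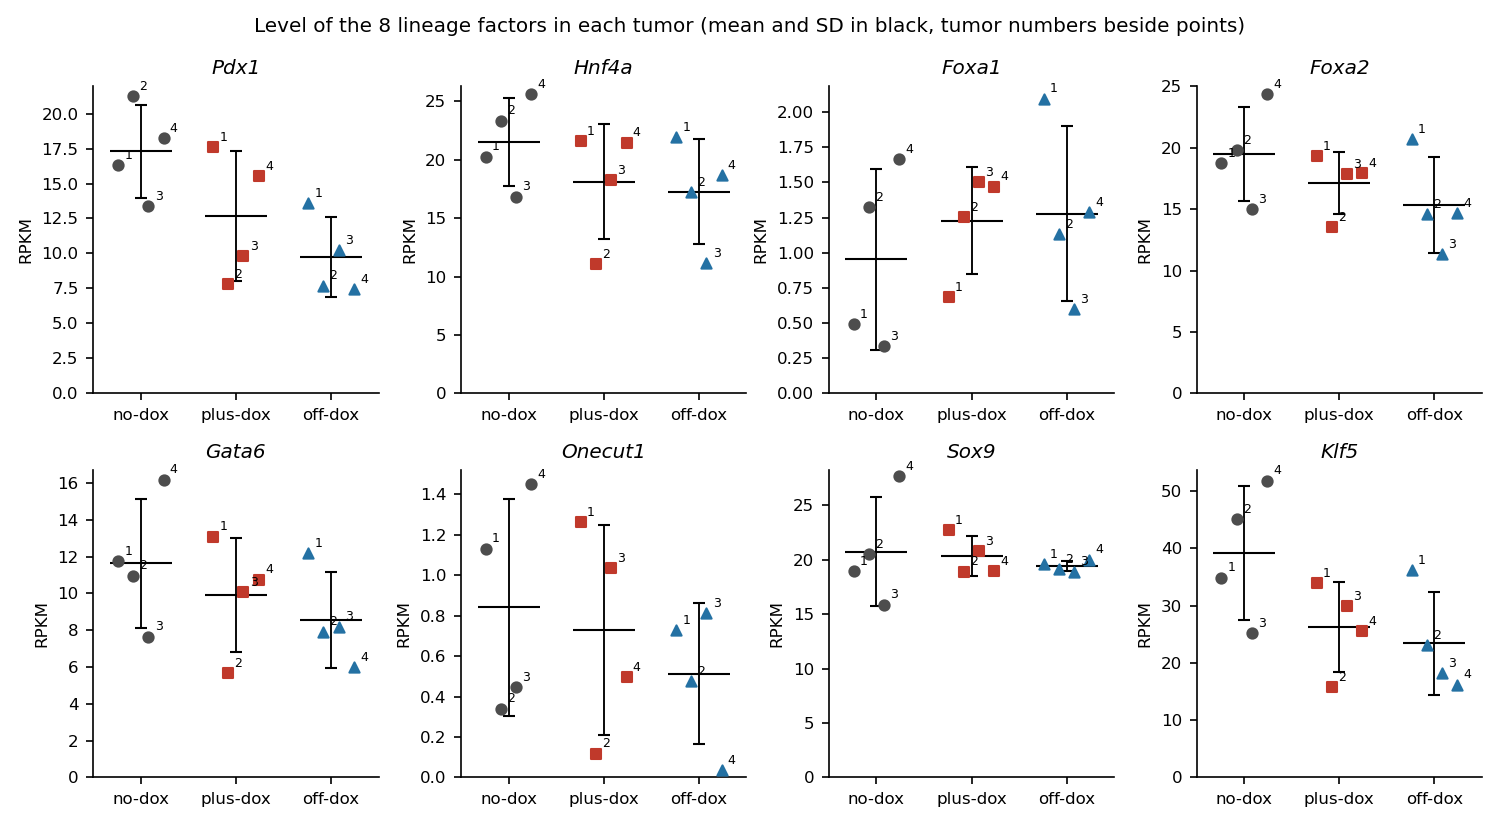
RPKM of each factor (vertical axis, linear, its own scale per panel) in every tumor, by group, with black bars for the group mean and SD and tumor numbers beside the points. Relative to its level Sox9 holds the narrowest band, from 15.9 to 27.6 RPKM, whereas Onecut1 spans 0.0366 to 1.45 RPKM.

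The factors differed in how much they varied among tumors. Across the 12 tumors the SD of log2 CPM was 0.20 for Sox9, 0.30 for Foxa2, 0.37 for Hnf4a, 0.44 for Gata6, 0.50 for Pdx1, 0.54 for Klf5, 0.79 for Foxa1 and 1.29 for Onecut1, beside a median of 0.27 over the 14548 genes above the expression limit of 0.25 RPKM. Sox9 therefore stood at percentile 30.2 of these genes and Onecut1 at percentile 96.5. The 2 most variable factors were also the shallowest, with 31 to 197 counts per tumor for Foxa1 and 2 to 98 for Onecut1, against 240 to 4248 for the other 6. Their counting error was therefore the largest of the 8.

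Pdx1 is the homeodomain factor without which no pancreas forms. It lies at chromosome 5, bases 148081707 to 148086725 of mm9, where its span overlaps that of 2210019I11Rik by 1391 bases. In these unstranded libraries reads of shared bases cannot be assigned by strand, and the study counted unambiguous exonic spans only. Pdx1 stood at 16.3, 21.2, 13.4 and 18.2 RPKM in no-dox tumors 1 to 4. In the plus-dox tumors the values were 17.6, 7.84, 9.79 and 15.5 RPKM, and in the off-dox tumors 13.6, 7.70, 10.2 and 7.44 RPKM. The highest value was in a no-dox tumor and the lowest in off-dox tumor 4, and 2 of 4 plus-dox tumors lay below every no-dox tumor. On RPKM the off-dox and no-dox groups overlapped by a narrow margin, at off-dox tumor 1 and no-dox tumor 3. The group means, in the order no-dox, plus-dox and off-dox, were 17.3 ± 3.30, 12.7 ± 4.63 and 9.74 ± 2.86 RPKM (SD, n = 4). In edgeR's quasi-likelihood fit across all genes, the log2 fold change of off-dox over no-dox tumors was -0.80 (SE 0.25, 95% interval -1.36 to -0.24, adjusted p = 0.130). That of plus-dox over no-dox tumors was -0.45 (SE 0.25, interval -0.998 to 0.11, adjusted p = 0.438). The adjusted p of off-dox over no-dox tumors was the lowest of the 8 factors, and it did not pass the limit of 0.1 on the adjusted p.

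Klf5, a zinc finger factor of proliferating gut and duct epithelium, lies at chromosome 14, bases 99697910 to 99712628. It stood at 34.9, 45.1, 25.2 and 51.8 RPKM in no-dox tumors 1 to 4. Plus-dox tumors gave 34.0, 15.7, 29.9 and 25.5 RPKM, and off-dox tumors 36.2, 23.0, 18.2 and 16.2 RPKM. Plus-dox tumor 2 was lowest and off-dox tumor 4 next, and both dox-treated groups reached into the no-dox range. Means were 39.2 ± 11.7, 26.3 ± 7.84 and 23.4 ± 9.03 RPKM (SD, n = 4). The log2 fold change was -0.72 in off-dox against no-dox tumors (edgeR, SE 0.30, interval -1.37 to -0.07, adjusted p = 0.204). For plus-dox against no-dox tumors it was -0.57 (edgeR, SE 0.30, interval -1.22 to 0.08, adjusted p = 0.411).

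Hnf4a (chromosome 2, bases 163372924 to 163398643), a nuclear receptor of liver and gut epithelium, stood at 20.3, 23.3, 16.8 and 25.6 RPKM in no-dox tumors 1 to 4. Across plus-dox tumors it was 21.6, 11.1, 18.3 and 21.5 RPKM, and in off-dox tumors 21.95, 17.2, 11.2 and 18.7 RPKM. The 3 groups overlapped, and 1 tumor in each dox-treated group, plus-dox tumor 2 and off-dox tumor 3, lay clearly below the rest. The log2 fold change over no-dox was -0.24 in plus-dox tumors (edgeR, SE 0.23, interval -0.75 to 0.26, adjusted p = 0.626) and -0.29 in off-dox tumors (SE 0.23, interval -0.79 to 0.22, adjusted p = 0.504).

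Onecut1 (also Hnf6; chromosome 9, bases 74709728 to 74737454), a cut homeodomain factor of the duct and the early pancreas, was the scarcest of the 8. Its values were 1.13, 0.340, 0.445 and 1.45 RPKM in no-dox tumors, 1.26, 0.117, 1.04 and 0.497 RPKM in plus-dox tumors and 0.730, 0.476, 0.811 and 0.0366 RPKM in off-dox tumors. Off-dox tumor 4 rests on 2 counts. The groups overlapped along nearly their whole length. The intervals of the log2 fold change over no-dox were wide, -1.92 to 1.49 for plus-dox and -2.44 to 1.02 for off-dox tumors. At this depth and spread between tumors, changes inside them, in both directions, were not excluded.

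The forkhead factors Foxa1 and Foxa2 open closed chromatin in the endoderm. Foxa2 (chromosome 2, bases 147868614 to 147872705) stood at 18.8, 19.8, 15.0 and 24.4 RPKM in no-dox tumors, 19.3, 13.5, 17.9 and 17.9 RPKM in plus-dox tumors and 20.7, 14.6, 11.4 and 14.7 RPKM in off-dox tumors. Off-dox tumor 3 was lowest and the groups overlapped. Foxa1 (chromosome 12, bases 58641619 to 58647108) stood at 0.490, 1.32, 0.338 and 1.67 RPKM in no-dox tumors, 0.684, 1.25, 1.50 and 1.47 RPKM in plus-dox tumors and 2.10, 1.13, 0.598 and 1.29 RPKM in off-dox tumors. It was the factor with the opposite sign, as both dox-treated groups had a higher mean than the no-dox tumors, 1.23 ± 0.379 and 1.28 ± 0.620 against 0.954 ± 0.643 RPKM (SD, n = 4). Neither factor passed the test. The log2 fold changes over no-dox were -0.18 and -0.32 for Foxa2 (edgeR, adjusted p = 0.666 and 0.364) and 0.38 and 0.44 for Foxa1 (adjusted p = 0.735 and 0.646) in plus-dox and off-dox tumors. The 95% intervals of Foxa1 ran from -0.73 to 1.49 and from -0.67 to 1.55, those of Foxa2 from -0.59 to 0.24 and from -0.73 to 0.10.

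Gata6 (chromosome 18, bases 11052508 to 11085633), a zinc finger factor of the endoderm, stood at 11.8, 11.0, 7.65 and 16.2 RPKM in no-dox tumors. The plus-dox tumors gave 13.1, 5.67, 10.1 and 10.8 RPKM and the off-dox tumors 12.2, 7.92, 8.19 and 5.97 RPKM. The groups overlapped, with plus-dox tumor 2 and off-dox tumor 4 below the other 10 tumors. Log2 fold changes over no-dox were -0.23 in plus-dox (edgeR, interval -0.84 to 0.38, adjusted p = 0.702) and -0.42 in off-dox tumors (interval -1.03 to 0.19, adjusted p = 0.410).

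Sox9 (chromosome 11, bases 112643524 to 112649071), an HMG-box factor of pancreatic progenitors and duct cells and also of cartilage, was the steadiest of the 8. It stood at 18.9, 20.5, 15.9 and 27.6 RPKM in no-dox tumors, 22.7, 18.9, 20.8 and 19.0 RPKM in plus-dox tumors and 19.6, 19.1, 18.9 and 20.0 RPKM in off-dox tumors. Both ends of its range were no-dox tumors, and the off-dox tumors spread by an SD of 0.498 RPKM around a mean of 19.4. The log2 fold change over no-dox was -0.02 in plus-dox tumors (edgeR, interval -0.35 to 0.31, adjusted p = 0.957) and -0.07 in off-dox tumors (interval -0.39 to 0.26, adjusted p = 0.821). These intervals were the narrowest of the 8 factors and lie inside the 1.5-fold limit in both directions.

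**Figure D2:**
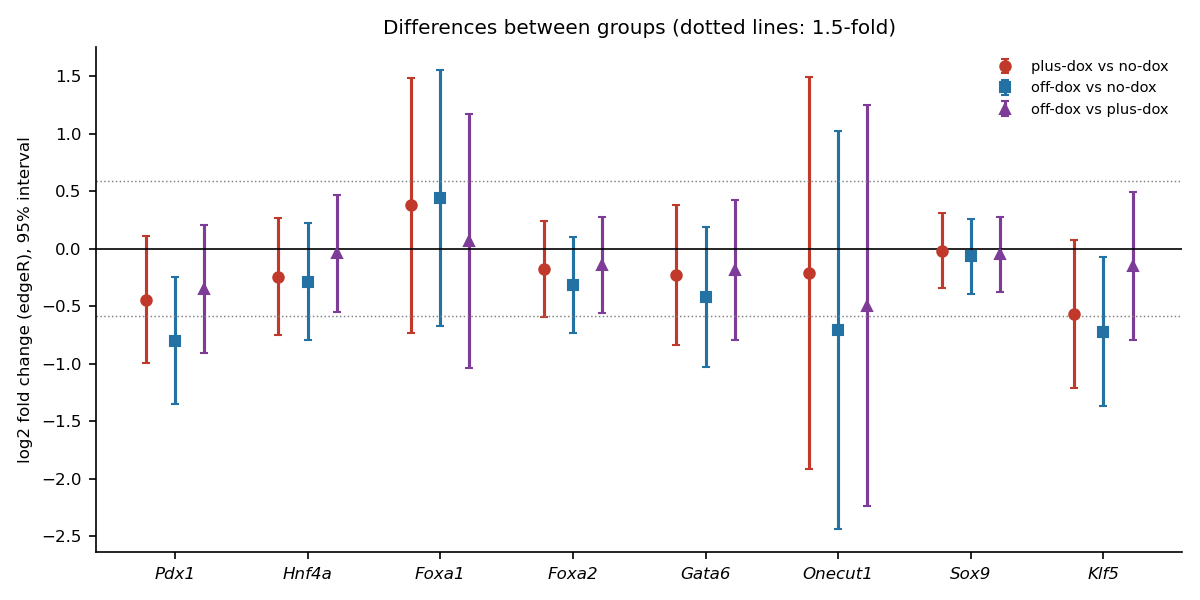
Log2 fold change of each factor between the groups (edgeR, 95% intervals), with dotted lines at the 1.5-fold limit. The intervals of off-dox over no-dox tumors end below 0 for Pdx1 (-0.24) and Klf5 (-0.07), and all others include 0.

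Counted together, 7 of 8 factors had a log2 fold change below 0 in each of the 3 comparisons, and Foxa1 was the one above 0 in all of them. Of all genes tested, 48.6% were below 0 in plus-dox against no-dox tumors, 49.3% in off-dox against no-dox and 50.1% in off-dox against plus-dox. The median over the 8 was -0.22, -0.37 and -0.15 in these comparisons, beside 0.01, 0.01 and -0.0005 over the 17561 genes tested. The first and the second comparison share the no-dox tumors. In off-dox against plus-dox tumors the values ran from -0.50 for Onecut1 to 0.07 for Foxa1, with Pdx1 at -0.35 (interval -0.91 to 0.20), and the adjusted p was 1.0 for 8 of 8 (edgeR). In bulk tumors, fewer cells that make a factor and less of its RNA per cell cannot be told apart.

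A factor was called changed at an adjusted p under 0.1, more than 1.5-fold, a mean RPKM over 0.25 and an exonic length over 250 bases. By edgeR, 0 of 8 factors were called in plus-dox against no-dox tumors, where the background over all genes was 0.0%. In that comparison 0 of 8 had an unadjusted p under 0.05 (background 13.7%), 0 of 8 had an interval below 0 (background 5.67%), and 0 were called by DESeq2 (background 0.847%, or 0.57% with moderated estimates) and by limma-voom (background 0.638%). In off-dox against no-dox tumors 0 of 8 were called (background 1.34%, and 0.307% in the lower direction). There Pdx1 and Klf5, 2 of 8, had an unadjusted p under 0.05 (background 20.4%) and an interval wholly below 0 (background 9.48%). DESeq2 called 1 of 8 in that comparison, Pdx1, with a log2 fold change of -0.79 (adjusted p = 0.0452), or -0.62 with moderated estimates (adjusted p = 0.0479), and limma-voom with sample weights also called Pdx1 (-0.84, adjusted p = 0.0550). Of all genes, these tools called 4.16%, 2.56% and 3.65%. In off-dox against plus-dox tumors 0 of 8 were called (background 0.0%), 0 had an unadjusted p under 0.05 (background 3.06%), 0 had an interval below 0 (background 1.81%), and 0 were called by DESeq2 (background 0.0343%, or 0.0229% with moderated estimates) and by limma-voom (background 0.0%). The joint test of the 3 groups called 0 of 8 (background 0.0%), and 1, Pdx1, had an unadjusted p under 0.05 (background 14.9%, edgeR adjusted p = 0.281).

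The call on Pdx1 depended on single tumors as well as on the tool. Without off-dox tumor 1, the highest of its group, the log2 fold change of off-dox over no-dox tumors was -0.99 for Pdx1 (edgeR, adjusted p = 0.0587) and -1.001 for Klf5 (adjusted p = 0.0735), so that 2 of 8 were called (background 4.49%). Without plus-dox tumor 2, 1 of 8, Pdx1, was called at -0.80 (edgeR, adjusted p = 0.0893, background 2.02%). Without both plus-dox tumor 2 and off-dox tumor 4, 0 of 8 factors were called (background 2.73%), with Pdx1 at -0.70 (edgeR, adjusted p = 0.113) and Klf5 at -0.59 (adjusted p = 0.212). Over all alternatives the log2 fold change of off-dox over no-dox tumors lay between -0.99 and -0.62 for Pdx1 and between -1.001 and -0.52 for Klf5, so the direction held throughout while the call did not. On log2 CPM after TMM normalization, 1 of 8 factors, Pdx1, did not overlap between off-dox and no-dox tumors (background 12.8%), and 0 of 8 were free of overlap in plus-dox against no-dox (background 9.6%) and off-dox against plus-dox tumors (background 1.36%). An exact permutation test of that difference, -0.82, gave p = 0.0286, the smallest that 4 against 4 tumors allow, and 0.686 after adjustment over 24 tests.

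Epithelial markers were compared in the same way. The mean log2 CPM of the 8 epithelial markers was 7.70 ± 0.44 for the no-dox group, 6.82 ± 1.24 for plus-dox and 7.07 ± 0.81 for off-dox (SD, n = 4), and 0 of 8 markers were called. In each comparison with no-dox tumors 7 of 8 markers had a log2 fold change below 0, the exceptions being Cldn7 at 0.80 in plus-dox and Cldn4 at 0.44 in off-dox tumors. Fibroblast markers, 8 of 8 present, ran from 7.88 to 8.88, 8.38 to 9.25 and 8.15 to 8.31 in the same order. Endothelial markers, 6 of 6 present, ran from 3.78 to 4.32, 4.15 to 5.40 and 3.99 to 4.63, again in that order. Keratins alone (Krt8, Krt18 and Krt19) ran from 9.78 to 10.2, 9.30 to 9.73 and 8.69 to 10.00. Skeletal muscle markers, 6 of 6 present, ran from 0.82 to 4.26, 4.41 to 6.72 and 1.53 to 8.14. In both comparisons with no-dox tumors 6 of 6 were above 0. Actn3 was called higher in off-dox than in no-dox tumors (log2 fold change 4.53, edgeR, adjusted p = 0.088). Its RPKM was 4.22, 26.1, 40.4 and 0.666 in off-dox tumors 1 to 4, against 0.323 to 1.28 in no-dox tumors. Off-dox tumor 4 thus lay inside the no-dox range. Adipocyte markers ran from -1.51 to 5.79, -1.06 to 5.13 and 0.071 to 3.95, with 0 of 6 called. Skin and hair follicle markers ran from -1.26 to 3.04, -1.77 to -1.27 and -1.55 to -0.998. Of 6 tested, 2, Krt71 and Krt73, were called lower in off-dox than in no-dox tumors (background 0.307%), and 4 of 6 were below 0 (background 49.3%). Both called genes were by far highest in no-dox tumor 1, so that 1 library carries most of their no-dox means. Krt71 was 13.4 RPKM there against 0.0306 to 0.720 in the other no-dox tumors, and Krt73 was 2.11 against 0.0484 to 0.238 RPKM. The part of these cell types in the differences of Pdx1 and Klf5 was not tested.

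The factors were also set against the epithelial markers of the same tumor. The difference of log2 CPM minus the epithelial mean was above 0 for 8 of 8 factors in plus-dox against no-dox tumors, from 0.31 for Klf5 to 1.46 for Foxa1. In off-dox against no-dox tumors 5 of 8 were above 0, with Pdx1 at -0.19, Klf5 at -0.11 and Onecut1 at -0.27, and in off-dox against plus-dox tumors 0 of 8 were. Without plus-dox tumor 2 and off-dox tumor 4 these counts were 7, 5 and 1 of 8. Klf5 was then at -0.059 and Foxa1 at 0.84 in plus-dox against no-dox tumors, and in off-dox against no-dox tumors Hnf4a turned to -0.022 and Onecut1 to 0.26. None of these reached the limit. In an exact permutation test, 0 of 8 factors had p under 0.05 in each comparison, against backgrounds of 5.18%, 1.55% and 0.0822% of genes, and 4 against 4 tumors allow no p below 0.0286. The lowest was that of Foxa1, at 0.0857 in both comparisons with no-dox tumors (exact test, adjusted p = 0.751). The choice of reference decided the sign for 6 factors. Without a reference, the plus-dox differences of Hnf4a, Pdx1, Gata6, Foxa2, Onecut1 and Klf5 lay below 0. Against the keratins Krt8, Krt18 and Krt19 alone, Sox9 was relatively higher in plus-dox than in no-dox tumors by 0.59. Foxa1 was relatively higher in off-dox than in no-dox tumors by 1.26 (exact test, unadjusted p = 0.0286 each). The keratin mean itself was 10.05, 9.47 and 9.38 log2 CPM in no-dox, plus-dox and off-dox tumors. Without a reference, these differences were 0.0081 for Sox9 and 0.59 for Foxa1.

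Tumor by tumor, the factors shared highs and lows that the groups do not capture. No-dox tumor 4 was highest for 6 of 8 factors, where it was highest for 11.9% of all genes, and the exceptions were Pdx1 and Foxa1. Plus-dox tumor 2 was lowest for 3 of 8 and among the lowest 2 tumors for 6 of 8, against 18.6% and 28.6% of all genes. Off-dox tumor 4 was lowest for 2 of 8, Pdx1 and Onecut1, and among the lowest 2 tumors for 4 of 8, against 9.22% and 24.3% of genes. Sox9 and Foxa1 were lowest in no-dox tumor 3, and Foxa2 in off-dox tumor 3.

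**Figure D3:**
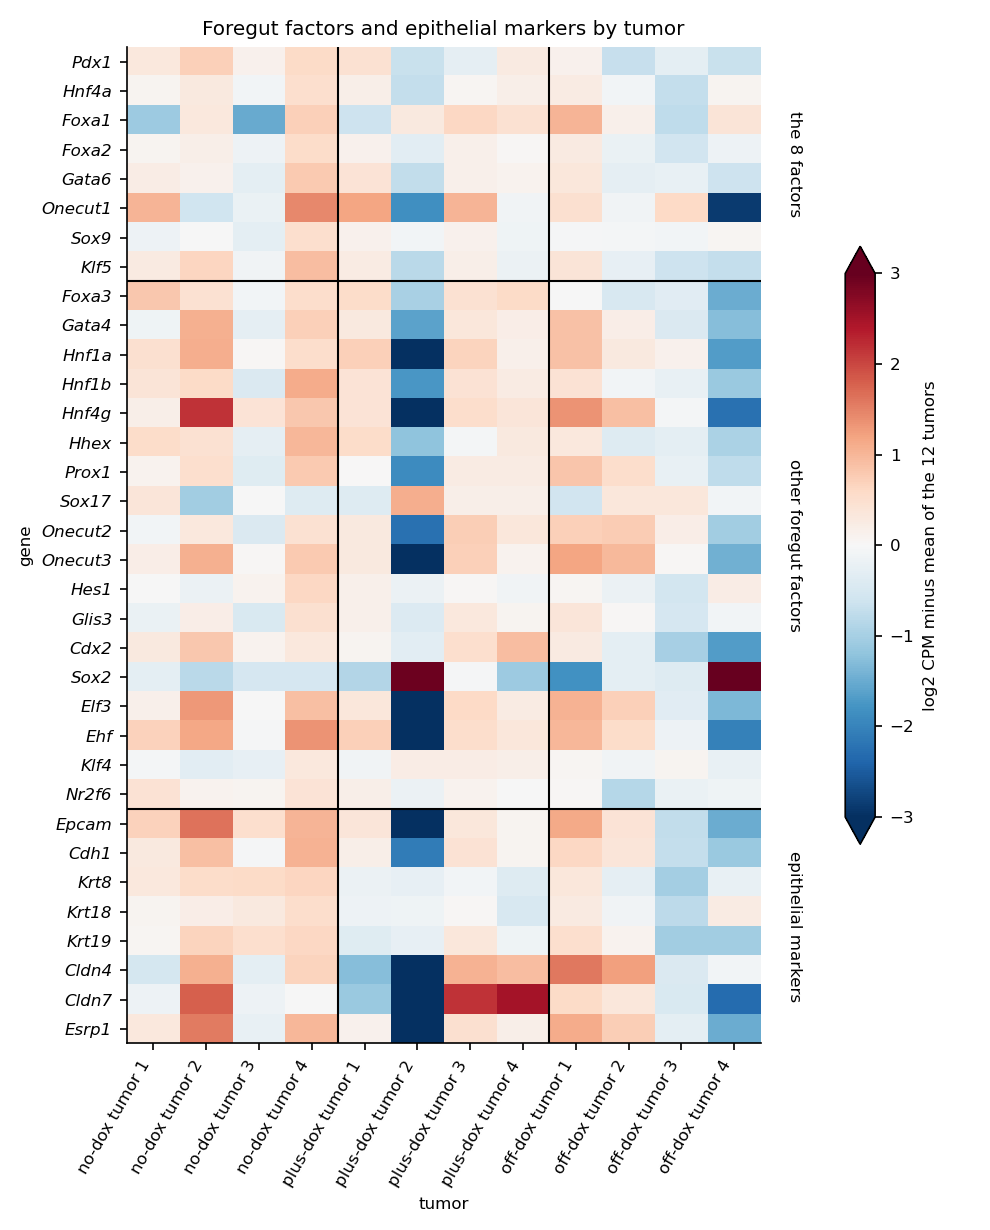
Log2 CPM of the 8 factors (top), other foregut factors and the epithelial markers (rows) in each tumor (columns), minus the mean of that gene over the 12 tumors, from blue (below) to red (above). Plus-dox tumor 2 and off-dox tumor 4 are blue for Gata6, Onecut1 and Klf5, while no-dox tumor 4 is high for most factors and Sox9 is near 0 across the row.

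Plus-dox tumor 2 and off-dox tumor 4, each set against the other 10 tumors, show which factors took part. Gata6, at 5.67 and 5.97 RPKM, lay below the other 10, which ran from 7.65 to 16.2 RPKM. Klf5, at 15.7 and 16.2 RPKM, lay below a range of 18.2 to 51.8. Onecut1 lay below the others as well. Hnf4a was below all others in plus-dox tumor 2 and inside the range in off-dox tumor 4, and Pdx1 the reverse. Sox9, at 18.9 and 20.0 RPKM, and Foxa1, at 1.25 and 1.29 RPKM, sat inside the range of the other 10 in both tumors. In all, 4 of 8 factors were below the other 10 in plus-dox tumor 2, 4 of 8 in off-dox tumor 4 and 3 of 8 in both, beside 22.3%, 22.8% and 15.6% of all 14548 genes. Among the epithelial markers, Epcam was 7.76 and 40.9 RPKM in the 2 tumors against 72.3 to 388 in the others, and Cdh1, which encodes E-cadherin, was 22.1 and 42.1 against 57.5 to 191. These tumors were picked as lowest on the mean of the epithelial markers, so low values of its members were partly fixed by that choice. Krt8, at 532 and 525 RPKM, stayed inside the range of 318 to 973, and so did Krt18. Krt19 was inside the range in plus-dox tumor 2 and below it in off-dox tumor 4, at 98.1 against 103 to 352 RPKM.

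Across the 12 tumors, 5 of 8 factors rose with the epithelial marker level. Pearson's r was 0.81 for Klf5 (permutation test, adjusted p = 0.00616), 0.76 for Hnf4a (0.0200), 0.73 for Gata6 (0.0200), 0.66 for Foxa2 (0.0393) and 0.63 for Pdx1 (0.0393), adjusted over the 8 factors. Spearman's rho was 0.78 for Klf5 and 0.75 for Foxa2 (permutation test, adjusted p = 0.0287 each), and 0.64, 0.56 and 0.48 for Hnf4a, Gata6 and Pdx1, with adjusted p of 0.0790, 0.125 and 0.160. Onecut1 (r = 0.57, rho = 0.27), Foxa1 (r = 0.19, rho = 0.52) and Sox9 (r = 0.18, rho = 0.28) did not pass (permutation test, adjusted p = 0.0712, 0.558 and 0.558 for r). For comparison, the median r over 14548 genes was -0.01, and Klf5, Hnf4a, Gata6, Foxa2 and Pdx1 stood at percentiles 93.8, 91.2, 89.7, 86.2 and 84.3 of these genes. Without the 2 tumors farthest from the median level, r was 0.75 for Hnf4a, 0.70 for Foxa2 and 0.70 for Klf5. It fell to 0.37 for Gata6 and 0.31 for Pdx1 and turned to -0.26 for Onecut1, whose relations rest on those tumors, while that of Foxa1 was then 0.69. Among the 8 tumors given dox, which lie on one side of the split by share of reads on genes, r was 0.81 for Klf5, 0.78 for Gata6, 0.72 for Hnf4a, 0.64 for Foxa2 and 0.47 for Pdx1, and the 4 no-dox tumors were too few for a value.

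**Figure D4:**
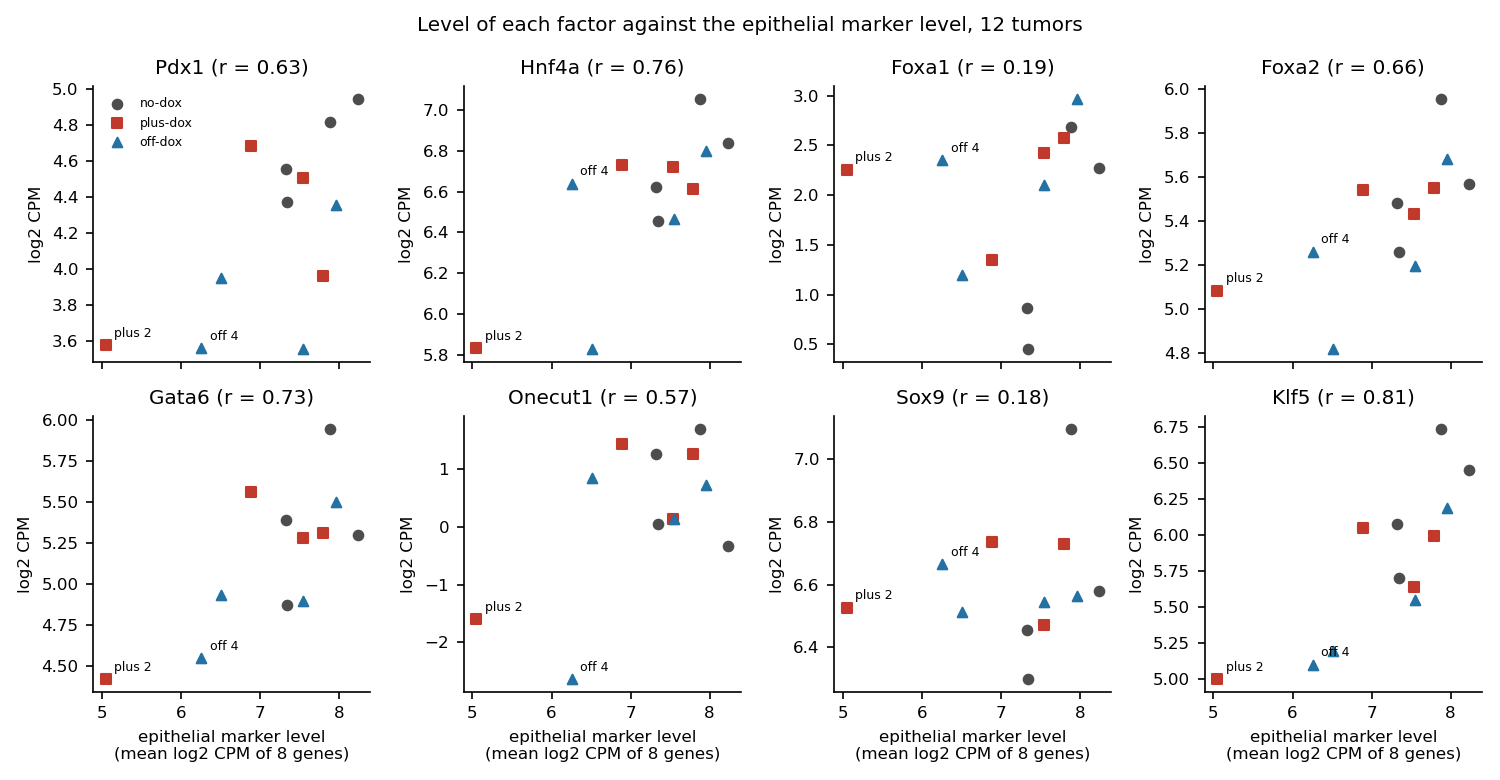
Log2 CPM of each factor against the mean log2 CPM of the 8 epithelial markers in the same tumor, 1 point per tumor coloured by group. Klf5 and Hnf4a climb with the marker level (r = 0.81 and 0.76), and Sox9 is nearly flat (r = 0.18).

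The factors were also compared with each other. Of 28 pairs, 12 had an adjusted p under 0.05 in a permutation test of Pearson's r, a test chosen after the data were seen. No share over all pairs of genes is given beside this count. Each factor also had genes outside the 8 at an r of 0.85 or above, so the count is not read as particular to these factors. Gata6 and Klf5 had an r of 0.91 (rho 0.86, permutation test, adjusted p = 0.00112) and Hnf4a and Foxa2 one of 0.90 (rho 0.90, adjusted p = 0.000840). Foxa2 and Klf5 had an r of 0.89 (rho 0.90, permutation test, adjusted p = 0.00112). Without plus-dox tumor 2 and off-dox tumor 4 these values were 0.84, 0.96 and 0.93, and within the 8 tumors given dox 0.94, 0.88 and 0.86. Gata6 and Onecut1 had an r of 0.82, and 0.65 without those 2 tumors. Picked out after their values were seen, Pdx1, Hnf4a, Gata6, Foxa2 and Klf5 had r between 0.64 and 0.91 in all 10 of their pairs, between 0.63 and 0.96 without the 2 tumors, and between 0.56 and 0.93 on deviations from the group means. With these 5, Sox9 had r of 0.22 to 0.62, Foxa1 of -0.11 to 0.44 and Onecut1 of 0.32 to 0.82. All points come from the same 12 libraries and share their depth and epithelial level.

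**Figure D5:**
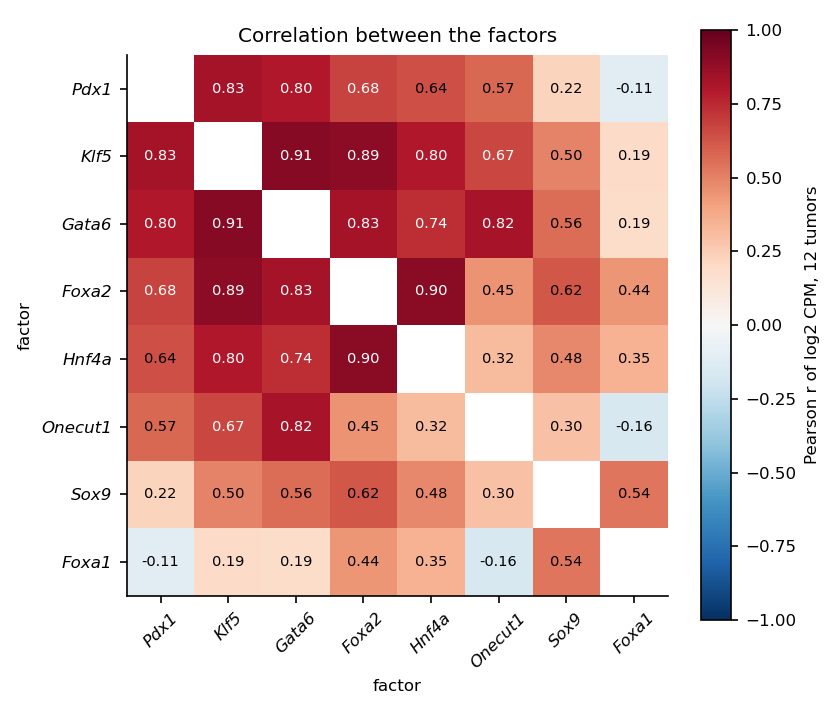
Pearson's r of log2 CPM over the 12 tumors for each pair of factors, from blue (negative) to red (positive), with the value in each cell. Pdx1, Klf5, Gata6, Foxa2 and Hnf4a form a block of r from 0.64 to 0.91, and Foxa1 is palest, with -0.11 against Pdx1.

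The genes whose levels most resembled each factor were ranked by Pearson's r of log2 CPM over the 12 tumors, among 12687 other genes with a mean above 1 RPKM, as a description with no test. For Klf5 they included Tmbim6 (0.98) and Lsr (0.97), and without plus-dox tumor 2 and off-dox tumor 4 Tmbim6 was still at 0.99. For Pdx1 they were Crip2, Slc5a6 and Acsf3, each at 0.97 and at 0.96 or above without those tumors. Gata6 was followed by Ctgf, Klhl36 and Lmo4, each at 0.97 and at 0.93 or above without them. Hnf4a was followed by Clu (0.96), Ddr1 (0.93) and Akap1 (0.92), and Foxa2 by Shb, Nck2 and H6pd, each at 0.94. Of the scarce factors, Onecut1 was followed by Zfp772 (0.96), Casp4 (0.95) and Cpne8 (0.94), values that dropped to 0.83, 0.81 and 0.73 without the 2 tumors, and Foxa1 by Rap1gap2 (0.94), 2900097C17Rik (0.93) and Atg9a (0.89). Sox9 had the loosest likeness, with Midn (0.88), Wwc2 (0.86) and Znrf2 (0.85).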

How the data were processed

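Polyadenylated RNA of 12 tumors was sequenced without strand information. Per the labels and the study's methods, reads were aligned to mm9 (TopHat 1.4.1, Bowtie 0.12.8, CASAVA 1.8.2) and assigned to unambiguous exonic spans of RefSeq genes (bedtools 2.16.2). The authors deposited 2 values per gene and tumor, an estimated count, derived from coverage and not whole, and RPKM.

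Counts were rounded and fitted for all genes with at least 10 counts over the 12 tumors by edgeR 4.0.16 (quasi-likelihood, TMM, 3 groups in 1 fit, Benjamini-Hochberg adjustment, R 4.3.3). Log2 CPM used a prior count of 2. DESeq2 1.42.0, limma 3.58.1, other filters and normalizations, a replicate block and omission of each tumor were tried as alternatives. Exact tests and correlations (100000 resamples) were computed with numpy 2.4.6, with ranks from scipy 1.17.1. The tests were checked on simulated data.

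The 8 factors and all gene lists were chosen with earlier results of these data known. Beside the 8 factors, the genes named were those of a list called in any comparison or otherwise its 3 highest by mean RPKM, and the 3 genes most like each factor. Single genes under this rule and 1 allele of the line are not reported here.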

Additional observations from a re-analysis of the deposited data

How the results depend on the processing

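With 4 tumors per group, the spread between tumors limits these results, as do low counts for Foxa1 and Onecut1. The number of factors called in off-dox against no-dox tumors was 0 by edgeR and 1 by DESeq2, with and without moderation, and by limma-voom. It ranged from 0 to 2 when each tumor was left out in turn, and the other comparisons gave 0 throughout. Replicate numbers do not pair the tumors. Same-numbered tumors deviated with a mean r of -0.09 (12 pairs, against 0.04 for 36 others), and 2 of 12 tumors correlated best with their own number. With a replicate block 0 factors were called and Pdx1 was at -0.84 in off-dox against no-dox tumors (edgeR, adjusted p = 0.167). Leaving out a tumor, or the block, cannot bring an exact p under 0.05 (smallest 0.0571 and 0.125). Each group alone gave 0 neighbour pairs in the order of levels instead of 4, since 4 tumors allow no p below 0.125. With junction genes alone as the epithelial level 3 factors, and with keratins alone 2, correlated at an adjusted p under 0.05, instead of 5. Relative to keratins alone, 1 factor had an unadjusted exact p under 0.05 in plus-dox and 1 in off-dox against no-dox tumors. No background is given for the keratin reference, so these counts are not read as particular to the factors. With no reference 1 factor had such a p in off-dox against no-dox tumors (background 12.8%).

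Some values turned sign. Sox9 in plus-dox against no-dox tumors was 0.019 with limma-voom, 0.0049 with the replicate block and 0.0072 without plus-dox tumor 2 and off-dox tumor 4, and Onecut1 was 0.14 without those tumors. Foxa1 was -0.14 in off-dox against plus-dox tumors with limma-voom. With no epithelial reference, Hnf4a, Pdx1, Gata6, Foxa2, Onecut1 and Klf5 were -0.27, -0.49, -0.24, -0.17, -0.36 and -0.57 in plus-dox against no-dox tumors. Sox9, Hnf4a, Gata6 and Foxa2 were then -0.036, -0.31, -0.41 and -0.33 in off-dox against no-dox tumors, and Foxa1 was 0.0060 in off-dox against plus-dox. With keratins alone, Sox9, Hnf4a and Foxa1 were 0.042, 0.043 and 0.092 in off-dox against plus-dox tumors. Without plus-dox tumor 2 and off-dox tumor 4, a setting chosen after seeing the data, the relative values were -0.059 for Klf5 in plus-dox against no-dox, -0.022 for Hnf4a and 0.26 for Onecut1 in off-dox against no-dox, and 0.047 for Foxa1 in off-dox against plus-dox.

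Leaving out 1 tumor at a time turned the sign of 5 fold changes. Sox9 ran from -0.12 to 0.17 and Onecut1 from -0.58 to 0.21 in plus-dox against no-dox, Sox9 from -0.16 to 0.12 in off-dox against no-dox, and Hnf4a from -0.21 to 0.12 and Foxa1 from -0.26 to 0.30 in off-dox against plus-dox tumors. Of the relative values, Klf5 ran from -0.059 to 0.56 in plus-dox against no-dox. In off-dox against no-dox tumors Hnf4a ran from -0.022 to 0.49, Pdx1 from -0.41 to 0.070, Onecut1 from -0.81 to 0.26 and Klf5 from -0.24 to 0.040. In off-dox against plus-dox tumors Sox9 ran from -0.60 to 0.27, Hnf4a from -0.63 to 0.083, Foxa1 from -0.58 to 0.38 and Foxa2 from -0.69 to 0.072. None of the turned values passed a threshold. The cause was not tested.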

Other observations

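Other transcription factors of the foregut and the embryonic pancreas gave 0 calls of 21 tested in each comparison (edgeR, backgrounds 0.0%, 1.34% and 0.0%), and their median log2 fold change was -0.21 in plus-dox and -0.25 in off-dox against no-dox tumors, beside 0.01 and 0.01 over all genes. Hhex, a homeobox factor of liver and pancreas, was the most abundant, at 67.4 ± 22.1, 48.9 ± 22.5 and 39.3 ± 15.0 RPKM (SD, n = 4) in no-dox, plus-dox and off-dox tumors. Elf3, an epithelial Ets factor, stood at a mean of 41.8 and Onecut2, a relative of Onecut1, at 40.7 RPKM over the 12 tumors, far above Onecut1 itself. Of the 18 over the expression limit, 11 were below the other 10 tumors in both plus-dox tumor 2 and off-dox tumor 4, where 15.6% of all genes were. Elf3 was 2.67 and 12.2 RPKM in those tumors against 25.5 to 83.7 in the others, Hhex 20.3 and 23.3 against 36.0 to 91.5, and Onecut2 7.49 and 16.6 against 26.04 to 60.1. Sox2, a factor of stomach and squamous epithelium named after its values were seen, went the other way, at 2.94 and 4.71 RPKM against 0.0829 to 0.332.

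Factors of the other pancreatic lineages were scarce. Neurog3, Neurod1 and Pax4, which drive endocrine fate, had no counts in any tumor. In all, 0 of 7 endocrine and 0 of 5 acinar factors tested were called in any comparison. Among duct genes, Aqp1, a water channel also of endothelium, was called lower in off-dox than in no-dox tumors (1 of 12, log2 fold change -0.79, edgeR, adjusted p = 0.083), and 12 of 12 were below 0 in both comparisons with no-dox tumors, where 48.6% and 49.3% of all genes were. None of 17 classical and 1 of 8 basal-like genes were called, the latter being Krt14, lower in off-dox than in no-dox tumors (-1.72, edgeR, adjusted p = 0.090). Of 7 factors of epithelial-mesenchymal transition, Zeb1 (0.67, edgeR, adjusted p = 0.079) and Zeb2 (0.71, adjusted p = 0.097) were called higher in off-dox than in no-dox tumors, and stromal cells also make both. Of all genes, 1.34% were called in that comparison and 0.307% called lower.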
